A study of Mus musculus with 2 samples.

Results

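The Schlafen family of the mouse is a group of related genes that lie side by side on chromosome 11. The 7 members described here, Slfn1, Slfn2, Slfn3, Slfn4, Slfn5, Slfn8 and Slfn9, were chosen by listed symbol from the 55536 genes of the deposited gene tables, and all 7 were found. Polyadenylated RNA was measured in 2 libraries of 1 group, called biological replicates 1 and 2 in the labels. The cells were macrophages grown in culture from bone marrow of C57BL/6J mice and held for 300 min with a stimulus at 100 ng/mL. The stimulus is labelled Lipid A in one field and lipoprotein A, a protein, in others, and is called the stimulus here. The biosample records of the libraries differ but the donor record is the same, so the spread between libraries may be partly technical, and sex and age were not collected. No unstimulated group was analysed, so every value is a level after stimulation and none is a response.

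Schlafen proteins share an N-terminal core domain and are sorted by size into short members (Slfn1, Slfn2), intermediate members (Slfn3, Slfn4) and long members (Slfn5, Slfn8, Slfn9), which add a helicase-like C-terminal domain. They are known for roles in the quiescence and growth of T cells and myeloid cells, and several bind or cut transfer RNA. Many Schlafen genes are targets of type I interferon, which macrophages make and sense after Toll-like receptor stimulation.

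The annotated coding sequences followed these size classes. In the GENCODE M21 transcripts the leading coding sequence had 337 codons in Slfn1, 378 in Slfn2, 517 in Slfn3, 602 in Slfn4, 884 in Slfn5 and 910 in each of Slfn8 and Slfn9. A pair of members stood out as near copies in each of the larger classes. Slfn3 and Slfn4 had the same base at 95.3% of 1524 aligned coding bases, and Slfn8 and Slfn9 at 92.7% of 2733. Slfn5 was more distant from its class, with 59.0% identity to Slfn8 and 59.5% to Slfn9. Slfn1 and Slfn2 matched each other at 68.4% of aligned bases, and Slfn2 matched Slfn3 at 72.0% and Slfn4 at 71.0%. Between Slfn1 to Slfn4 and the long members identity ranged from 50.9% to 55.4%. The first 60 coding bases of the Slfn8 and Slfn9 transcripts are shown because they let the near copies be compared directly, with the start codon in capitals.
Slfn8: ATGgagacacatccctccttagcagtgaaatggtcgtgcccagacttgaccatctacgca
Slfn9: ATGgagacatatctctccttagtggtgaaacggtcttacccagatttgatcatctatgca
The longest stretch that the Slfn8 and Slfn9 coding sequences share without a mismatch was 139 bases, from coding base 2540 in both. It is shown because a read that falls within it cannot be given to either gene by sequence alone.
Slfn8 and Slfn9 shared run: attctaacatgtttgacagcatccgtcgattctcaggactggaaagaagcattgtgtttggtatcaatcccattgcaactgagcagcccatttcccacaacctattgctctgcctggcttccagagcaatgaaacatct
For Slfn3 and Slfn4 the longest such stretch was 95 bases, from coding base 1064 of Slfn3 and 1301 of Slfn4.
Slfn3 and Slfn4 shared run: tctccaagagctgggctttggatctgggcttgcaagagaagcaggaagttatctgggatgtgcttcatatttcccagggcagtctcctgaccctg
Over all transcripts of each gene, the share of distinct 31-base words also found in any other gene ran from 1.96% in Slfn1 to 30.9% in Slfn3, with 27.3% in Slfn8 and 24.6% in Slfn9. Words shared with other members or the pseudogene Slfn10-ps made 15.9% in Slfn3, 26.7% in Slfn8 and 19.8% in Slfn9. In Slfn5 13.4% of words were shared with any gene and 0% with these. For 100-base words the shares with any other gene were 3.39% in Slfn8 and 3.71% in Slfn9. The highest was 6.40% in Slfn5, and 388 of the 403 shared words lay in Slfn5os, an antisense gene that overlaps it.

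**Figure D1:**
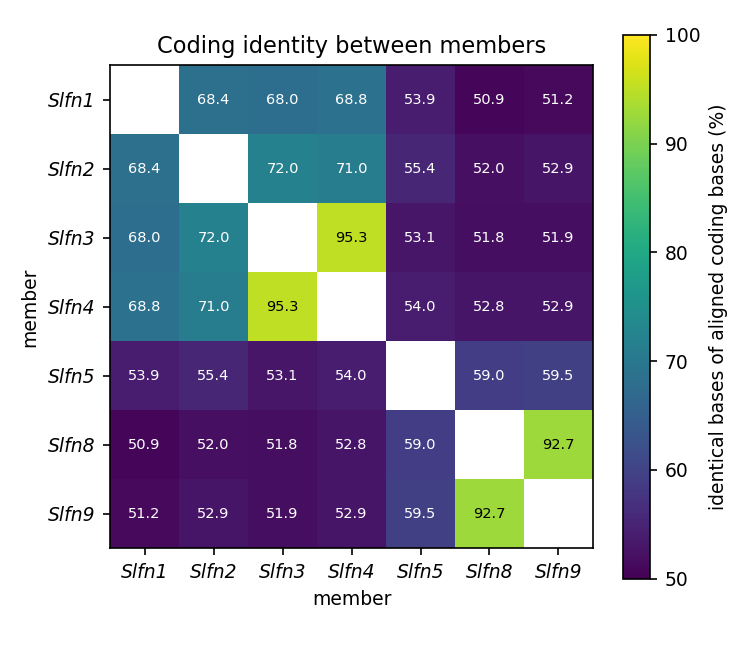
Percent of identical bases among aligned coding bases for each pair of the 7 members, from the leading annotated coding sequence of each gene. The bright cells are Slfn3 with Slfn4 (95.3%) and Slfn8 with Slfn9 (92.7%), and the next highest pair is Slfn2 with Slfn3 at 72.0%.

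All 7 members were expressed in both libraries, and the family spanned a wide range of levels. Levels are given in TPM, which state a gene's part of all transcripts in a library after scaling to length. Every member reached 10 TPM in both libraries, a level reached by 23.5% of the 22028 annotated protein-coding genes. Slfn2, Slfn5, Slfn8 and Slfn9 reached 100 TPM in both, against 5.08% of protein-coding genes. The family summed to 3649 TPM in replicate 1 and 3158 TPM in replicate 2 (3403 ± 347, SD, n = 2). Slfn2, Slfn5 and Slfn8 together held 92.7% of that sum in each library.

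Slfn2, a short member needed for quiescence of T cells and monocytes and known to shield transfer RNA from cleavage, was the highest. It stood at 1944 TPM (replicate 1) and 1816 TPM (replicate 2), a mean of 1879.7 ± 90.4 (SD, n = 2). That mean ranked 61 among protein-coding genes, and the libraries lay close together. The gene is ENSMUSG00000072620.3 at chr11:83065112-83070678 on the plus strand (mm10). Slfn2 held 53.3% of the family TPM in replicate 1 and 57.5% in replicate 2, but 26.9% and 32.2% of the family's expected counts. Its only annotated transcript has 1664 bases against 5979 in the leading transcript of Slfn5, and counts are not scaled to length. The protein-coding genes nearest to Slfn2 in log2(TPM + 1) over the 2 libraries were Ifi204, Ifi211 and Mpeg1, with largest differences of 0.07, 0.08 and 0.09.

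Slfn1, the other short member and a suppressor of thymocyte growth, was far lower and differed between the libraries. Its level was 44.8 TPM in the first replicate and 66.0 TPM in the second (55.4 ± 15.0, SD, n = 2), from 1779 and 4396 expected counts. Replicate 2 was the higher one, while the other 6 members were lower there in TPM. TPM was lower in replicate 2 for genes at large, with a median log2 ratio of -0.098, and Slfn2 also stood at -0.098. With other ways of scaling or filtering, Slfn2, Slfn3 and Slfn9 took both signs, so no common direction is read from the 6. The gene, ENSMUSG00000078763.2, lies at chr11:83116849-83122670 on the plus strand.

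The intermediate members were the lowest of the family in mean level. Slfn3, described in intestinal epithelium and T cells, stood at 40.6 and 30.6 TPM in replicates 1 and 2 (35.6 ± 7.09, SD, n = 2). Slfn4, a myeloid member whose forced expression disturbs myeloid development, stood at 41.4 and 11.2 TPM (26.3 ± 21.3, SD, n = 2). The 2 genes thus stood level in replicate 1 and apart in replicate 2, where Slfn3 was 2.72 times Slfn4. The deposited credibility bounds of Slfn4 were 38.2 to 41.8 TPM in replicate 1 and 10.4 to 11.7 TPM in replicate 2, and did not overlap. The same held for every other member, among them Slfn2 with 1857 to 1886 TPM and 1762 to 1784 TPM. It is thus not particular to Slfn4, and the bounds are given per library and do not measure the spread between libraries. Slfn4, ENSMUSG00000000204.16, lies at chr11:83175186-83190216, and Slfn3, ENSMUSG00000018986.10, follows it at chr11:83191330-83215154, both on the plus strand.

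The long members came next after Slfn2 in level. Slfn5, a largely nuclear protein whose gene is regulated by interferon, had 874 and 716 TPM in replicates 1 and 2 (795 ± 112, SD, n = 2). It gave the most reads of the family, with 111816 and 135733 expected counts. Slfn8, a long member described in the activation of immune cells, had 563 and 396 TPM (479.5 ± 119, SD, n = 2). Slfn9, its near copy, had 141 and 123 TPM (132 ± 12.9, SD, n = 2). All 3 were lower in replicate 2 in TPM, but for Slfn9 the direction depended on the scaling or filter used. Slfn8 exceeded Slfn9 by 3.99 times in replicate 1 and 3.22 times in replicate 2. Slfn5, ENSMUSG00000054404.13, lies at chr11:82951349-82964840 on the plus strand. Slfn8, ENSMUSG00000035208.16, lies at chr11:83002158-83020810 and Slfn9, ENSMUSG00000069793.12, at chr11:82978390-82991830, both on the minus strand.

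The order by mean TPM was Slfn2, Slfn5, Slfn8, Slfn9, Slfn1, Slfn3 and Slfn4, and it was the same in the second quantification, a transcript table made from the reads by another method. Among the 6 pairs of neighbours in the order only Slfn3 and Slfn4 had ranges that overlapped between the libraries. In the second quantification Slfn2 had 1819 and 1681 TPM in replicates 1 and 2, Slfn8 had 541.5 and 351 TPM, and Slfn4 had 37.4 and 11.4 TPM. The deposited posterior standard deviation of the expected count, which reflects how shared reads were divided, was 0 for Slfn1, Slfn2 and Slfn4 in both libraries. It was 1.51 and 2.32 counts for Slfn8, 3.17 and 3.26 for Slfn9, 1.52 and 1.70 for Slfn3, and 6.53 and 5.05 for Slfn5 in replicates 1 and 2. These are small beside the members' counts, of which the lowest among these 4 genes was 1624 for Slfn3 in replicate 1.

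**Figure D2:**
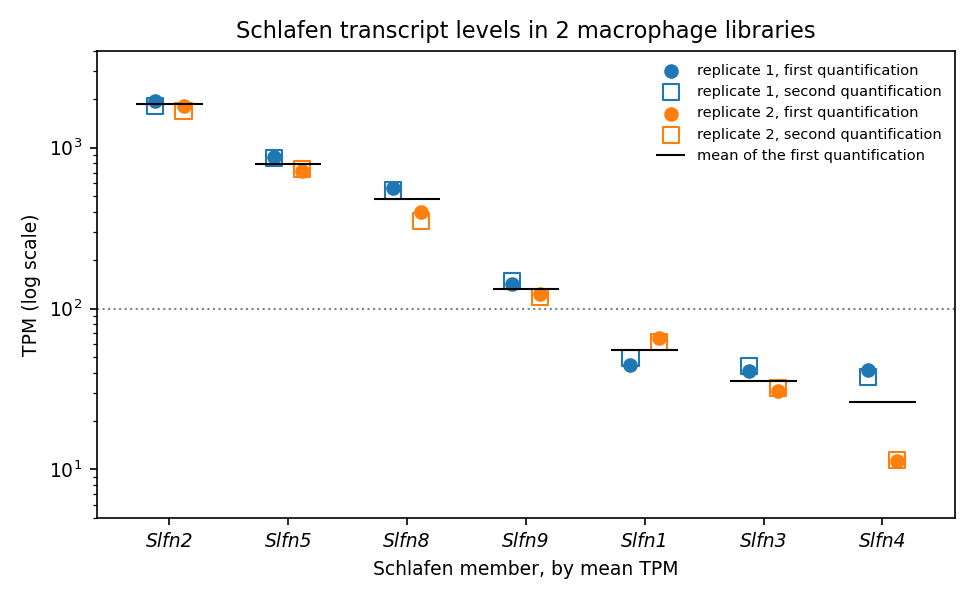
TPM of each member on a log axis in replicate 1 (blue) and replicate 2 (orange), from the first quantification (filled circles) and the second (open squares), with the mean of the first as a black bar and 100 TPM dotted. Slfn2 sits between 1681 and 1944 TPM, 3 members lie below 100 TPM, and Slfn4 has the widest gap between libraries on this axis (41.4 and 11.2 TPM).

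Other genes with a Schlafen name were low or near 0. Slfn10-ps, a transcribed pseudogene beside Slfn8, had 14.7 and 11.8 TPM in replicates 1 and 2. Slfn5os, the antisense partner of Slfn5, had 4.34 and 1.97 TPM from 29.9 and 24.8 expected counts. Its posterior standard deviation equalled that of Slfn5, 6.53 and 5.05 counts, and the second quantification gave it 152 and 114 counts. The tables do not say if strand was used in counting, so reads of Slfn5 and Slfn5os cannot be told apart with certainty. Slfn14, a long member known from platelets, had 1 count in replicate 1 and 0 counts in replicate 2, where 3 counts would be 0.0211 TPM. Slfnl1, a Schlafen-like gene on chromosome 4, had 0 counts in both libraries, which allows 0.0808 TPM in replicate 1 and 0.0481 TPM in replicate 2.

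Of the 15 genes of the Schlafen stretch that are not members, 3 reached 1 TPM in both libraries. From the start of Slfn5 to the end of Slfn3 the stretch covers 263.8 kb (chr11:82951349-83215154) with 22 annotated genes, and it was described after the values were seen. The 3 were Slfn5os, Slfn10-ps and the processed pseudogene Gm11425 (15.2 and 14.1 TPM). All 15 are annotated as pseudogenes, microRNA, long noncoding or antisense genes and none as protein-coding, unlike the members. The share of such genes at 1 TPM elsewhere was not counted, so the contrast with the members may follow gene type. The 5 plus-strand members were Slfn1 to Slfn5, and the 2 minus-strand members were Slfn8 and Slfn9, which lie between Slfn5 and Slfn2.

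**Figure D3:**
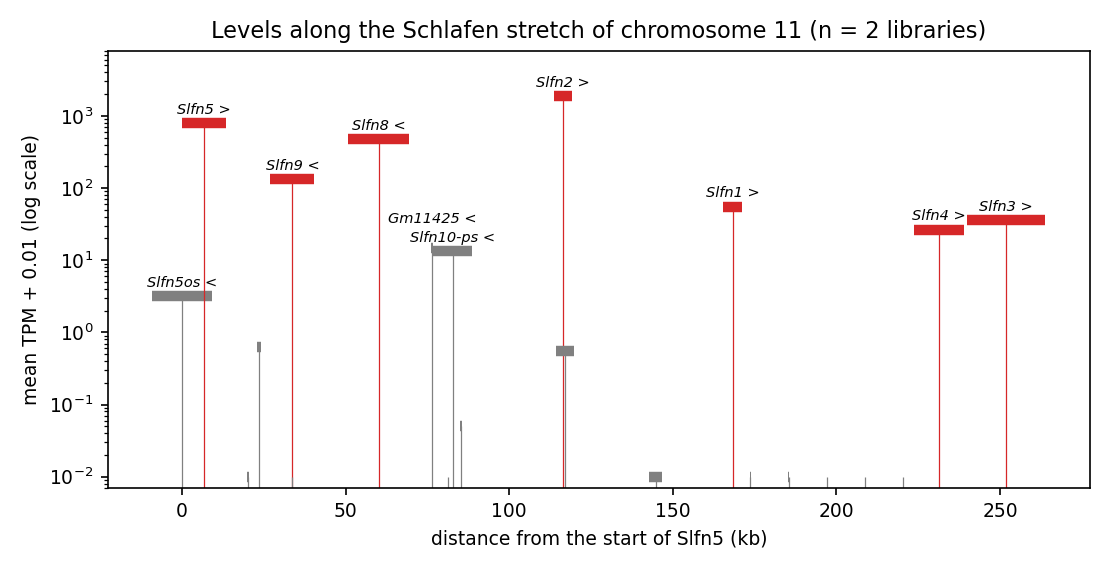
Mean TPM + 0.01 of the 22 genes along the Schlafen stretch on a log axis, by distance from the start of Slfn5 in kb, with the 7 members in red, other genes in grey, and > or < for the plus or minus strand. The mean levels of the members lie between 26.3 and 1879.7 TPM, above the mean of each other gene, but in replicate 2 Slfn4 (11.2 TPM) was below Gm11425 (14.1 TPM) and Slfn10-ps (11.8 TPM).

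Between the libraries, Slfn4 showed the widest difference of the family and Slfn1 the second widest, in opposite directions. For this the expected counts were rounded, scaled by TMM (a factor that evens out the bulk of genes between libraries) and taken as log2 ratios of replicate 2 over replicate 1. Depth over all genes was 38028201 expected counts for the first replicate and 63649100 for the second. There is 1 library on each side, so there is no test, and the 95% intervals cover counting error only. Of the 7 members 2, or 28.6%, passed 1.5-fold, against 35.8% of the 12226 genes with enough counts. In each direction it was 1 member, against 16.7% of genes that were higher in replicate 2 and 19.1% that were lower there. The members' share is thus near the background and is no result about the family. The median ratio of the members was -0.22 and that of all tested genes -0.01.

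Slfn4 had a TMM-scaled CPM, its share of the library's counts, of 79.0 in replicate 1 and 26.3 in replicate 2. The log2 ratio was -1.58 (interval -1.67 to -1.50), lower in replicate 2, and 1.71% of tested genes had a lower ratio. It was past 1.5-fold in the same direction in all 8 settings tried, from -1.79 to -1.26. Markers of other myeloid cells moved the same way. The 9 neutrophil markers summed to 508 TPM in replicate 1 and 18.7 TPM in replicate 2, with 3 of 9 at 1 TPM in both. All 4 neutrophil markers with enough counts were past 1.5-fold lower in replicate 2, against 19.1% of all tested genes. S100a9 was the highest at 316 and 10.2 TPM in replicates 1 and 2. Ly6g, a defining neutrophil marker, was at 0 in both libraries, and Elane and Mpo stayed below 1 TPM. The 4 megakaryocyte and platelet markers summed to 767 TPM in replicate 1 and 107 TPM in replicate 2, with 2 of 4 at 1 TPM in both, most of it from Pf4. The part of the markers of both lists in the Slfn4 difference was not tested. In bulk RNA fewer cells of a type and less RNA per cell cannot be told apart.

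Slfn1 had a TMM-scaled CPM of 44.0 in replicate 1 and 73.6 in replicate 2. Its log2 ratio was 0.74 (interval 0.66 to 0.82), 1.67-fold higher in replicate 2. With total counts it was 0.56 and with log2(TPM + 1) 0.55, both short of 1.5-fold. T cell markers, which matter for a gene first described in T cells, were low but for Cd4. Of 8 T cell markers only Cd4, also made by some macrophages, reached 1 TPM, at 44.8 TPM in replicate 1 and 79.9 TPM in replicate 2. Cd3d and Cd3e were at 0.03 and 0 TPM, and Cd3g and Trbc2 at 0 in both libraries. The 2 T cell markers with enough counts were past 1.5-fold higher in replicate 2, against 16.7% of all tested genes. Their log2 ratios were 1.00 for Cd4 and 0.59 for Cd247, which stayed below 1 TPM. Cd8a went the other way, with 8 expected counts in replicate 1 and 0 in replicate 2. Cd3d, Cd3e and Trbc1 did so too, each with 1 and 0 counts. Of the 8 macrophage markers 2 were also past 1.5-fold higher in replicate 2, Cd68 at 1.34 and Csf1r at 0.63, and 0 were past it lower. Over all tested genes these shares were 16.7% and 19.1%, and nothing particular to the macrophage markers is read from the counts. Lyz2 (0.57), Cd14 (0.33) and Itgam (0.24) were higher in replicate 2 within 1.5-fold. Adgre1 (-0.37), Fcgr1 (-0.12) and Mertk (-0.05) were lower in replicate 2 within 1.5-fold. The part of the T cell and macrophage markers in the Slfn1 difference was not tested. No B cell marker of 5 and no natural killer cell marker of 4 reached 1 TPM in both, while all 8 macrophage markers did.

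The other 5 members lay within 1.5-fold. Slfn8 had a log2 ratio of -0.38 (interval -0.40 to -0.36) and Slfn5 of -0.28 (interval -0.29 to -0.27), and both were lower in replicate 2 in every setting tried. With the GC and length trend removed the ratios were -0.11 for Slfn8 and -0.17 for Slfn5. Of all tested genes 28.6% had a lower ratio than Slfn8 and 33.6% a lower one than Slfn5, so neither stood out. Slfn3 (-0.22), Slfn9 (-0.02) and Slfn2 (0.09) took both signs over the 8 settings, so no direction is given for them. Of the near copies, Slfn4 and Slfn3 had intervals of -1.67 to -1.50 and -0.32 to -0.13, and Slfn8 and Slfn9 of -0.40 to -0.36 and -0.05 to 0.01. These cover counting error only, so whether the copies differ from each other between biological replicates was not tested.

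**Figure D4:**
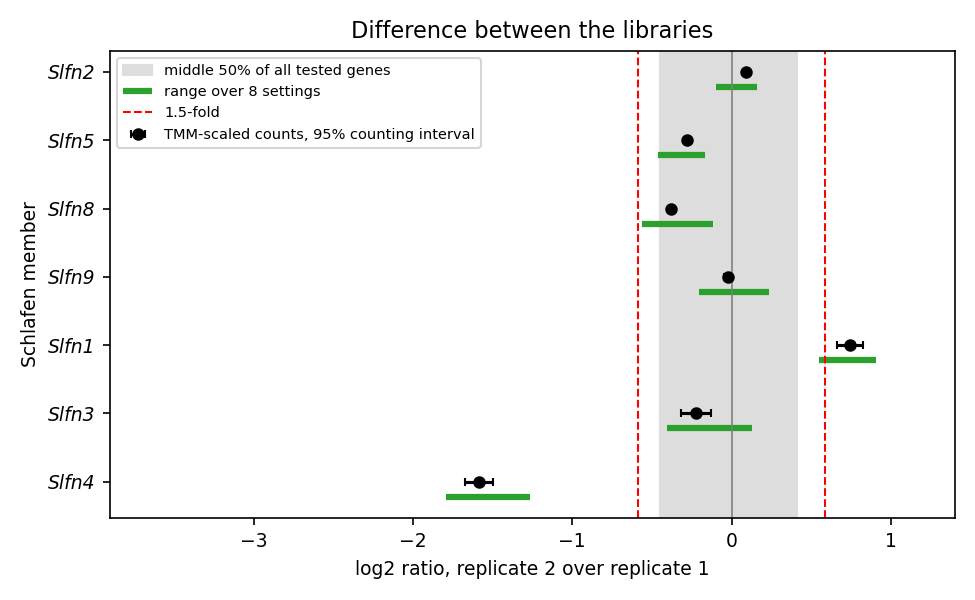
Replicate 2 over replicate 1 as a log2 ratio of TMM-scaled counts, for each member with its 95% counting interval (black; within the symbol for 4 members), and the range over the 8 settings tried (green). The grey band is the middle 50% of the 12226 tested genes, from -0.45 to 0.41, and red dashes mark 1.5-fold: Slfn4 (-1.58) and Slfn1 (0.74) lie beyond them.

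Slfn1 and Slfn2 have 1 annotated transcript each, and the other 5 members have several. The share of a gene's TPM in each transcript was read from both quantifications. In 4 of these 5 genes the same transcript led in all 4 transcript tables. Slfn9-201 held 92.1% of Slfn9 in replicate 1 and 93.7% in replicate 2. Slfn3-201, with 517 codons, held 63.0% and 59.7%, and most of the rest was Slfn3-202, with 640 codons. The leading shares of both genes lay close together in the libraries.

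Slfn5 had a second, shorter transcript at a share that differed between the libraries. Slfn5-201, the full-length form, held 87.4% in replicate 1 and 76.1% in replicate 2, and Slfn5-203 held 12.5% and 23.6%. The second quantification gave Slfn5-203 13.9% and 31.3%, again higher in replicate 2. Slfn5-203 is annotated with 1134 coding bases in 1263 and with no bases after the coding part, so the model is incomplete at its 3′ end. Only 29 of its 1233 31-base words, or 2.35%, occur in no other Slfn5 transcript.

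Slfn8 was split over several transcripts. Slfn8-201 held 49.9% in replicate 1 and 41.8% in replicate 2, and Slfn8-203, annotated with 407 codons against 910 in Slfn8-201, held 19.5% and 30.3%. Slfn8-206 has a coding part of the same 407-codon length and held 16.4% and 18.1% in the first quantification but 0% in both libraries of the second. None of the 31-base words of Slfn8-202, Slfn8-203 or Slfn8-206 is particular to that transcript within the gene. Slfn4 was the 1 gene whose leader changed. In the first quantification Slfn4-201 led with 48.8% and 46.3%, and Slfn4-202 held 26.4% and 44.5%. In the second, Slfn4-201 led replicate 1 with 56.4% and Slfn4-202 led replicate 2 with 67.8%. Both encode 602 codons, and 130 and 35 of their 31-base words are their own. Slfn4-203, a 209-codon form, held 24.9% and 9.25% in the first quantification, against 2.93% and 1.98% in the second.

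**Figure D5:**
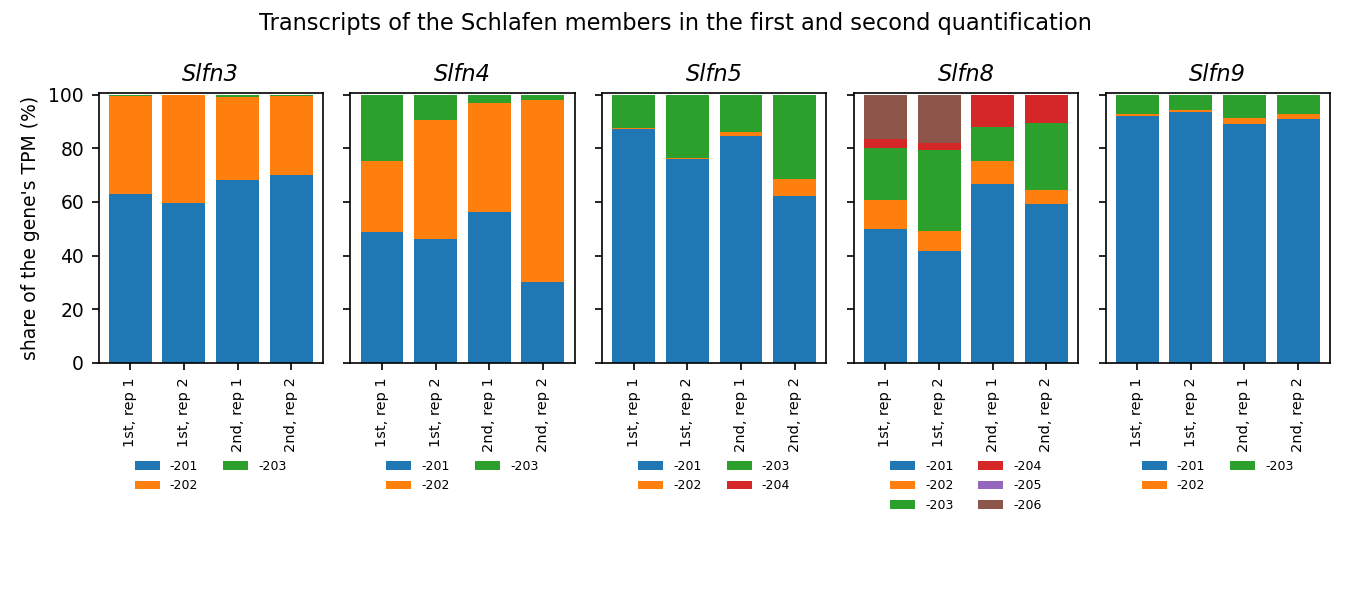
Share of each gene's TPM by annotated transcript, in percent, for the 5 members with several transcripts, with bars for the first and second quantification in replicates 1 and 2. Slfn9 is led by one transcript at 89.0% to 93.7%, while Slfn8-206 (brown) takes 16.4% and 18.1% in the first quantification, against 0% in the second.

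Promoter windows were read from RefSeq (GRCm38.p6), from 250 bases before to 50 after each annotated start, with 8 windows for the 7 members because Slfn8 has 2. They were searched on both strands for letters that resemble binding sites of interferon and inflammatory factors. The share among all 32851 windows stands beside each count. GAAA followed by any 2 bases and a further GAAA, the core of the interferon-stimulated response element, was found in Slfn5, Slfn8 and Slfn9, the 3 long members, and in 3.44% of all windows. The matches are shown in capitals, on the gene's strand, because only the long members hold them in these windows. In Slfn5 the match began 155 bases before the start (chr11:82951927-82951976, plus strand), in Slfn8 48 bases before (chr11:83020829-83020878, minus strand) and in Slfn9 45 bases before (chr11:82991846-82991895, minus strand).
Slfn5 window: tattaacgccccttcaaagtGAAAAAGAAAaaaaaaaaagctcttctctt
Slfn8 window: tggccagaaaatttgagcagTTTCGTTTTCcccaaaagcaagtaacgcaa
Slfn9 window: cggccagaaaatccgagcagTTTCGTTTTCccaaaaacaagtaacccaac
In Slfn8 and Slfn9 the match is on the opposite strand, in promoters that are identical at 83.3% of aligned bases. The RefSeq window of Slfn5 lies downstream of the GENCODE start of the gene. Slfn2, the highest member, had no such match in its window. A further pair of motifs was added after the promoters of the members were read, so their counts in the members only describe these windows. The first, GGAA followed by any 2 bases and GAAA, fixes as many bases as the motif above. It was in Slfn2 alone among the members, on the opposite strand from 59 bases before the start (chr11:83065033-83065082, plus strand), and in 2.72% of all windows.
Slfn2 window: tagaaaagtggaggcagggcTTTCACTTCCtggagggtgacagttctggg
AANNGAAA, a looser motif that lies within both longer ones, was in all 7 members and in 23.9% of all windows. Slfn1 and Slfn4 windows share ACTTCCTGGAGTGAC, 15 bases that begin 74 and 73 bases before their starts. Slfn1 and Slfn2 share CACTTCCTGGAG, 12 bases, part of which overlaps the Slfn2 match shown. The motif TATAAA was found in Slfn4 alone, 19 bases before the start, and in 13.6% of windows. GAGGAA, the core of PU.1 sites, was found in Slfn9 alone and in 28.3% of windows. TTCNNNGAA, bound by STAT dimers, and GGGA followed by any base and TTTCC, bound by NF-kB, were in no member's window and in 8.30% and 0.411% of all windows. A match is a description of letters and no evidence that a factor binds.

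Genes of the type I interferon pathway were read beside the Schlafen members as a list of 22 that runs from ligand and receptors to signal carriers and targets. All 22 reached 1 TPM in both libraries and 16 reached 100 TPM, against 42.4% and 5.08% of protein-coding genes. The list's median was 364 and 400.3 TPM in replicates 1 and 2, beside 141 and 123 TPM for the Schlafen members and 0.310 and 0.210 TPM for all protein-coding genes. The highest were Rsad2, an antiviral enzyme gene, at 9352 and 6225 TPM and Ifit3, an interferon target, at 2997 and 3088 TPM. Ifnb1, the interferon-beta gene, was the lowest at 7.54 and 4.92 TPM. Slfn2 was thus below Rsad2 and Ifit3 in both libraries and far above Ifnb1. Between the libraries 2 of the 22 were past 1.5-fold higher in replicate 2 and none lower, against 16.7% and 19.1% of all tested genes, and nothing particular to the list is read from these counts.

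Because Slfn2 is known to protect transfer RNA from ribonucleases, 5 genes of transfer RNA cleavage and protection were also read. All 5 reached 1 TPM in both libraries, a level reached by 42.4% of protein-coding genes. Rnh1, the ribonuclease inhibitor, was the highest at 109.96 and 62.4 TPM in replicates 1 and 2. The transfer RNA methyltransferase genes Nsun2 (30.1 and 23.4 TPM) and Trdmt1 (7.62 and 5.68 TPM) followed the same direction in TPM. Ang, the ribonuclease angiogenin, had 6.73 and 13.1 TPM, and Elac2, which trims precursor transfer RNA, had 5.37 and 4.92 TPM. All 5 were below Slfn2, Slfn5, Slfn8 and Slfn9 in both libraries.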

How the data were processed

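Polyadenylated RNA of 2 libraries was quantified on mm10 with the GENCODE M21 annotation, per the deposited notes and file headers. Neither aligner nor quantifier nor any version of them is given in the sources used here. The authors deposited 1 gene table and 1 transcript table per library in the column layout of RSEM and a second transcript table in that of kallisto. Expected counts as deposited by the authors are estimated reads per feature, with shared reads divided. Deposited TPM and FPKM are scaled by the authors to transcript length, and the deposited percent column gives a transcript's share of its gene's TPM. Credibility bounds and posterior means were used as deposited, and the level of the bounds is not stated. Expected counts summed to 38028201 and 63649100 over 55536 genes in replicates 1 and 2. Another 26345 entries that name no gene (0.132% and 0.0882% of counts) were left out. Of the genes, 86 were not in the second transcript table.

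Rounded expected counts were filtered by filterByExpr and scaled by TMM in edgeR 4.0.16 (R 4.3.3). Log2 ratios took a prior count of 2, and intervals are exact binomial at 95%. Over all 12226 tested genes the biological coefficient of variation of an intercept-only fit was 0.319. Size factors of DESeq2 1.42.0, total counts, no filter, the second quantification's counts, log2(TPM + 1), a prior count of 0.5 and a removed GC and length trend were the alternatives for the ratio. Levels were repeated with the second quantification, FPKM, posterior means and TPM rescaled over nuclear protein-coding genes. Coding sequences of the leading transcripts from GENCODE M21 were aligned with MAFFT 7.526, and promoter windows came from RefSeq, where all 7 members matched by symbol. Named genes are the members, every other gene with a symbol beginning Slfn, the 3 protein-coding genes nearest to the highest member, the 2 highest and the lowest of the interferon list, and the transfer RNA list, of which 1 gene is not reported here. Gm11425 and the marker genes named singly were chosen after their values were seen. The members and lists were chosen with earlier results of these data known. With 1 group there was no comparison of conditions and no p-value.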

Additional observations from a re-analysis of the deposited data

How the results depend on the processing

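The summed family level of 3403 TPM was 2219.8 in FPKM, which is another unit, and 4105 TPM when rescaled over nuclear protein-coding genes. It ranged from 3158 to 3649 TPM with either replicate left out. The number of members past 1.5-fold between the libraries was 2, and 1 with total counts or log2(TPM + 1), where Slfn1 fell short. Total counts moved the log2 ratio of all genes by -0.18. Leaving out a replicate cannot be done for a ratio of 2 libraries. With either replicate left out, the members at 100 TPM were 4 in number, the genes led by their longest transcript were 4 and the interferon genes at 100 TPM were 16 to 17. The second quantification gave 4, 3 and 16. In FPKM 3 members reached 100 in both libraries, with Slfn9 at a mean of 86.1. Member GC contents, 42.9% to 49.5%, lay below the median of 49.8% of tested genes. Removing the GC and length trend turned the sign of Slfn3 (0.13) and Slfn9 (0.23), Slfn9 was 0.04 with no filter, and Slfn2 turned to -0.09 with total counts and to -0.10 with log2(TPM + 1). Of 49 member ratios under alternatives, 29 lay outside the counting interval, and the cause was not tested. With 2 libraries from the same donor record, no spread between animals can be given.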
